A study of Mus musculus with 6 samples.

Results

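The genes described here are 35 genes that mark the surface and the identity of macrophages, measured in cultured mouse megakaryocytes, wild-type or with Gata-1 knocked down. They were found as every probe set of the array whose annotation names 1 of these genes and no other, which gave 59 probe sets of the 45037 that are not controls. Macrophages are the tissue-resident phagocytes that descend from yolk sac, fetal liver and marrow progenitors. They live on signals from the receptor for colony stimulating factor 1, engulf dying cells and expelled red cell nuclei, and sense microbes through scavenger receptors, C-type lectins and receptors for complement. In the fetal liver they sit at the centre of islands of maturing red cells. Many of the receptors hand their signal to an adaptor with an ITAM, a short tyrosine motif that recruits kinases, or to a phosphatase through its inhibitory counterpart, the ITIM.

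Both groups were megakaryocytes, the large cells that shed platelets, grown in differentiation medium from progenitors of fetal livers taken at day 13.5 and collected on a gradient of bovine serum albumin. The 3 knockdown and 3 wild-type samples, named A, B and C in each group, were hybridised to 1 Affymetrix array each. The labels give no allele, strain, construct or promoter for the knock down, and they leave unsaid whether cultures or animals were separate, so p-values cover the spread of the 6 samples and that spread may be technical. Gata1 itself, a zinc finger factor without which megakaryocytes and red cells do not mature, read 153.5, 143.3 and 194.7 in knockdown and 8723.7, 8246.5 and 8495.6 in wild type, so the labels hold on every array. Markers of the labelled cell type were seen in both groups: the 10 megakaryocyte markers on the array were all brighter than the bacterial control probe sets. None of the 6 macrophage markers summed below was within background either, so this does not tell cell types apart. Pf4, the platelet chemokine gene, had a signal of 19982 ± 2626 with knockdown and 17120 ± 811 without (SD, n = 3), and a log2 fold change of -0.06 ± 0.04 (SE) after normalization that did not pass the test. Itga2b did not pass either, at -0.03 ± 0.06, while Gp9 fell by 0.58 ± 0.06 and Tubb1 fell by 2.61 ± 0.06 on the log2 scale. Knockdown B stood apart, with the highest median signal, 137.8 against 101.6 to 118.4, and the highest bacterial control signal, 132 against 60.7 to 82.2.

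Macrophage genes were mostly lower in knockdown. Of the 35 genes, 26 fell, 0 rose, 6 did not pass the test and 3 were too dim to be tested. Calls are from limma at an adjusted p of 0.05, with Benjamini-Hochberg adjustment over the whole array (31526 probe sets). A gene is given by the brightest of its probe sets. Over the 14230 genes tested, 17.1% were called lower and 18.3% higher. Fitted falls reached 2-fold for 20 of the 35, against 5.14% of all genes tested. The median log2 fold change over all 35 genes, tested or not, was -1.09, beside 0.03 over all 18193 genes named on the array. On 25 of the 35 genes each knockdown array lay below each wild-type array, a pattern that 20.4% of genes tested shared, and 1 of the 35 lay wholly above, as did 29.1% of genes tested. Without knockdown B the count of falls was again 26. By probe set, 41 of 59 fell, 1 rose, 10 did not pass and 7 were not tested, where 30.4% of all probe sets tested were called, 14.3% lower and 16.1% higher. In RNA from a whole culture, fewer macrophages and less RNA per macrophage cannot be told apart, nor can either be told from expression of these genes by megakaryocytes themselves.

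**Figure D1:**
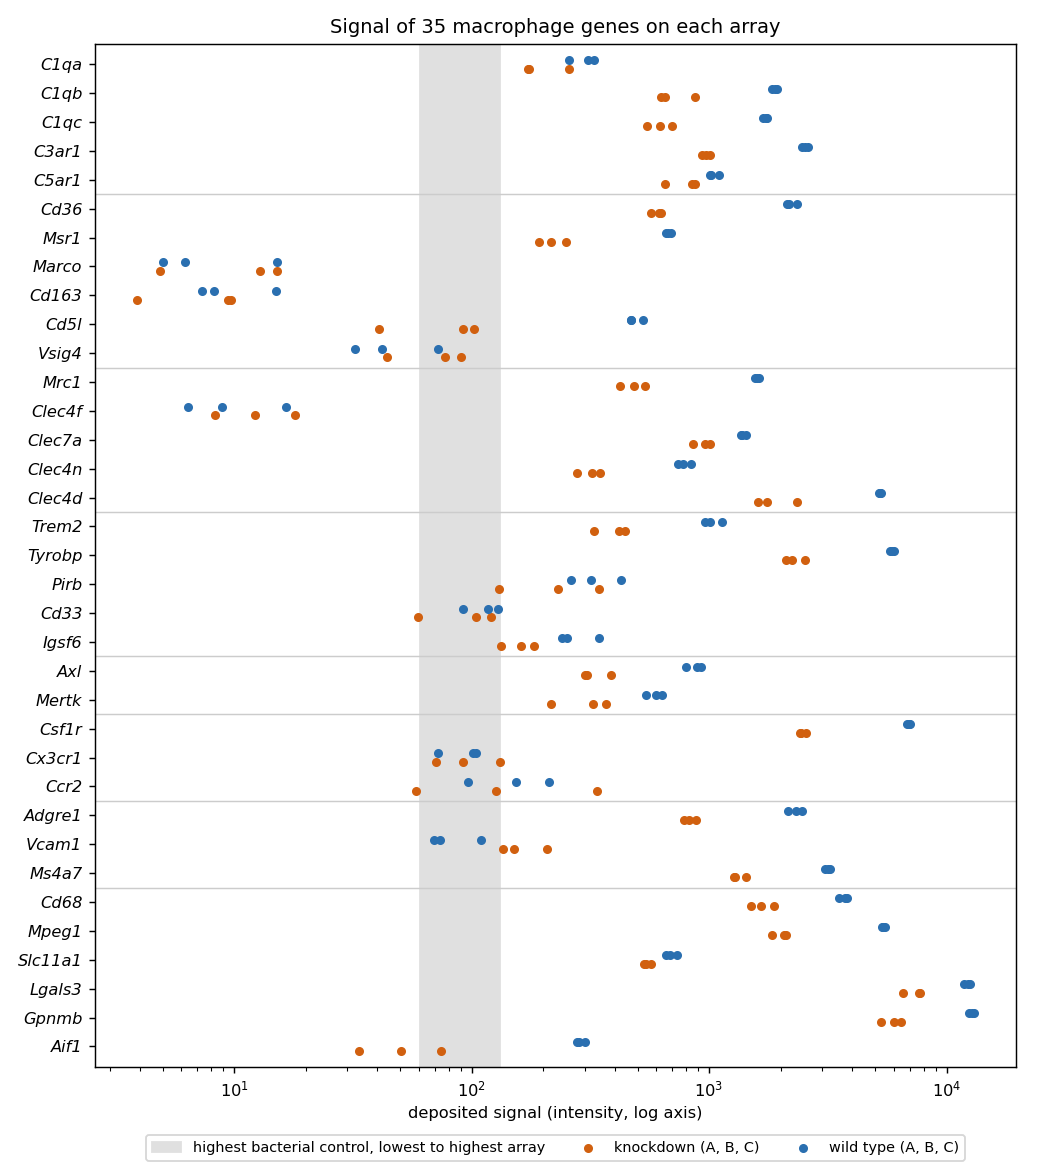
Deposited signal of 35 macrophage genes (1 probe set each) on a logarithmic axis, with a point for each of 3 knockdown arrays (orange) and 3 wild-type arrays (blue), ordered by role and separated by grey lines. The grey band spans the highest bacterial control signal of the 6 arrays, 60.7 to 132. For 25 genes all orange points lie left of the blue ones, Vcam1 shows the opposite order, and Marco, Cd163 and Clec4f lie below the band in both groups.

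The upstream sequences of 4 members that fell are shown: Cd5l, a secreted scavenger protein, Mrc1, the mannose receptor, C1qc, a chain of complement C1q, and Clec4d, an activating lectin. They do not represent all genes that fell. None is from the lysosome, phagosome and cytosol group, of which all 6 fell. All 4 hold GAGGAA, while Cd36, Mpeg1 and Gpnmb, among others that fell, do not. Each line gives the 250 bases before the start site from RefSeq (GRCm38.p6), 5′ to 3′ on the strand of the gene. Capitals mark GAGGAA or its complement TTCCTC, the core letters of the PU box bound by the macrophage factor PU.1, and GATAA or its complement TTATC, the core letters bound by GATA factors.
Cd5l, chr3:87357631-87357880, strand +: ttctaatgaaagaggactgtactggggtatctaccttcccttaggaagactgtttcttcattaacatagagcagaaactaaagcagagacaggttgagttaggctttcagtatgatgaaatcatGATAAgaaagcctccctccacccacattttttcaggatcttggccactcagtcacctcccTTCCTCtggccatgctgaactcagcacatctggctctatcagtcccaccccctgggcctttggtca
Mrc1, chr2:14229164-14229413, strand +: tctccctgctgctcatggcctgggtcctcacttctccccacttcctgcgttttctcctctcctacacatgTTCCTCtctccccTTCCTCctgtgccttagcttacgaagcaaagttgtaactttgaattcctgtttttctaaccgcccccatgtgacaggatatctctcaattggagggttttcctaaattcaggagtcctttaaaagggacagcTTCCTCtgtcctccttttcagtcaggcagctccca
C1qc, chr4:136892915-136893164, strand -: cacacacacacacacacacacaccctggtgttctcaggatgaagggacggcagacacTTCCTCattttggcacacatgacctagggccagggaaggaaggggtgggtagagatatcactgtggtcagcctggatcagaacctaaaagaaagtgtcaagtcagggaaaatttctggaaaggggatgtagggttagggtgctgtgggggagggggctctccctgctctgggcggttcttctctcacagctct
Clec4d, chr6:123261857-123262106, strand +: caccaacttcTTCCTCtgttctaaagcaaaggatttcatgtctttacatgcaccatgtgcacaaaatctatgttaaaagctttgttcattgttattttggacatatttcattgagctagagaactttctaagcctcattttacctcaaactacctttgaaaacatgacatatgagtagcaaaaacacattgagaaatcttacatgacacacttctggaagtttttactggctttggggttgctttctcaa
Mrc1 holds GAGGAA at 3 places, C1qc and Clec4d at 1 each, and Cd5l at 1 along with 1 GATAA. Both strands were searched, and by their letters matches of the one string cannot overlap those of the other. The promoter table held 28 of the 35 members, and GAGGAA lay in the 250 bases of 16 of them (57.1%), against 25.9% of the 27025 genes of the table. Of the 20 members that fell and had an entry, 12 held it (60.0%). Among members not called lower, Marco, Vsig4, Pirb and Cd33 held it, and Cd163, Clec4f, Cx3cr1 and Ccr2 did not. GATAA lay upstream of 6 of the 28 members (21.4%), of 4 of the 20 that fell (20%) and of 25.5% of all genes. These matches describe letters in a window and do not show binding.

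All 5 complement genes fell. C1q, the molecule that starts the classical complement pathway and tags debris for uptake, is built from the chains of C1qa, C1qb and C1qc, which lie next to each other on chromosome 4 with no coding gene between them. C1qc read 624.6, 547.0 and 698.9 in knockdown and 1750.9, 1744.9 and 1681.7 in wild type. Its groups lay far apart, 2.73-fold lower in knockdown (-1.45 ± 0.10 on the log2 scale, SE, limma adjusted p 2.18e-06). C1qb changed by -1.38 ± 0.11, and its other probe sets by -1.09 ± 0.10 and -0.94 ± 0.07. C1qa was dimmer and noisier, at 258.4, 172.7 and 174.6 against 258.0, 310.7 and 328.1, so knockdown A read as high as wild type A. It fell by 0.68 ± 0.19 on the log2 scale (limma adjusted p 0.0219), a call lost in 4 of the fits that left out 1 array: it was -0.55 without knockdown B, -0.62 without knockdown C, -0.65 without wild type B and -0.61 without wild type C, with adjusted p of 0.0524 to 0.0934.

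C3ar1 and C5ar1 encode the receptors for the complement fragments C3a and C5a, and both fell. C3ar1 read 931.2, 967.6 and 1012.0 in knockdown and 2620.9, 2468.4 and 2530.8 in wild type, a log2 fold change of -1.34 ± 0.07 (SE) that was -1.73 and -1.88 at its other probe sets. C5ar1 read 653.8, 871.1 and 851.5 against 1024.1, 1103.2 and 1011.4, and changed by -0.44 ± 0.12 at its brighter probe set and by -1.08 ± 0.15 at the other. The call at the brighter one was lost without any 1 wild-type array, with log2 fold changes of -0.45, -0.40 and -0.45 without A, B and C. The 6 pairs of members that share a family or a locus were compared by the log2 difference of their brightest probe sets within each array. Other probe sets of C1qb, C3ar1 and C5ar1 changed by other amounts, so the differences depend on that choice. The fitted change of C3ar1 minus that of C5ar1 was -0.91 ± 0.12 (SE, n = 3 per group), that of C1qa minus C1qb 0.70 ± 0.10 and that of C1qa minus C1qc 0.77 ± 0.23. An exact two-sided permutation test over 3 against 3 arrays gave p = 0.1 for each, the smallest it allows, and 0.15 after adjustment over the 6 pairs, so none passes. C1qb and C1qc differed by 0.07 ± 0.17 (exact permutation p = 0.7).

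Scavenger receptors split into genes that fell and genes that could not be seen. CD36 takes up oxidised lipids and is made by macrophages, platelets and other cells. Cd36 read 614.7, 629.4 and 570.0 in knockdown and 2127.0, 2353.4 and 2175.7 in wild type, with a log2 fold change of -1.83 ± 0.08 (SE), or 3.57-fold lower (limma adjusted p 1.23e-07). Its second bright probe set fell by 2.34 ± 0.12, and the third, above the controls on 1 of 3 knockdown arrays, was at -0.95 ± 0.35 and did not pass. Msr1, the macrophage scavenger receptor, fell by 1.61 ± 0.14, from 672.2 ± 15.5 to 219.4 ± 29.0 (SD, n = 3), and its other tested probe sets fell too. Cd5l, whose product is secreted by macrophages, read 40.8, 92.5 and 102.2 against 470.5, 524.8 and 468.2. Only knockdown C exceeded its bacterial controls, and Cd5l was at least 4.20-fold lower (limma adjusted p 1.30e-05). The other 3 genes of this role group gave no usable signal in knockdown or wild type. Marco and Cd163 lay below the bacterial controls on all 6 arrays, and Vsig4, a complement receptor, lay above them on 1 array of each group.

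Lectin receptors fell by unequal amounts. Mrc1, which binds mannose and fucose, read 539.6, 421.7 and 484.4 in knockdown and 1563.7, 1629.8 and 1587.1 in wild type, 3.27-fold lower (log2 fold change -1.71 ± 0.10, SE, limma adjusted p 7.62e-07). Clec4n and Clec4d, the genes of dectin-2 and its relative, are neighbours on chromosome 6 with no coding gene between them. Clec4n changed by -1.34 ± 0.11 and -1.33 ± 0.18 at its probe sets, and Clec4d, at 2341.8, 1610.3 and 1758.3 against 5194.4, 5290.6 and 5266.6, by -1.40 ± 0.11. Their changes differed by 0.07 ± 0.12 (exact permutation p = 0.8). Clec7a, the beta-glucan receptor dectin-1, fell by 0.56 ± 0.09, from 1391.8 ± 36.3 to 943.9 ± 78.4 (SD, n = 3), and its arrays did not overlap. Clec4f, a lectin of mouse liver Kupffer cells, lay below the bacterial controls on all 6 arrays.

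The adaptor Tyrobp, also called DAP12, which carries the ITAM for TREM2 and many other myeloid receptors, read 2109.7, 2239.0 and 2540.3 in knockdown and 5919.3, 5799.0 and 6020.6 in wild type. That is 2.43-fold lower, with a log2 fold change of -1.28 ± 0.07 (SE, limma adjusted p 7.95e-07). Trem2, a lipid receptor, fell by 1.39 ± 0.13 at its brighter probe set. Its dimmer one, within background in knockdown, was at -0.78 ± 0.38 and did not pass. Igsf6 fell by 0.85 ± 0.18. Pirb, an inhibitory receptor with ITIMs, and Cd33 did not pass the test. Pirb was at -0.62 ± 0.27 (limma adjusted p 0.111, 95% interval -1.22 to -0.03) and Cd33 at -0.41 ± 0.24 (adjusted p 0.243, interval -0.93 to 0.12). Pirb read 130.6, 344.7 and 231.3 against 261.8, 427.0 and 319.0, and without knockdown B its log2 fold change was -0.91 with an adjusted p of 0.0178.

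The kinases AXL and MERTK recognise dying cells through bridging proteins that bind phosphatidylserine. Axl read 307.4, 300.9 and 386.5 in knockdown and 926.0, 802.5 and 892.7 in wild type, and fell by 1.40 ± 0.13 (SE) on the log2 scale. Mertk read 325.6, 215.9 and 369.7 against 635.8, 545.3 and 599.9, and fell by 1.04 ± 0.19. In both genes every knockdown array lay below every wild-type array. The fitted change of Axl minus that of Mertk was -0.36 ± 0.17 (exact permutation p = 0.1, and 0.15 adjusted over the 6 pairs). That p is the smallest possible with these arrays, so the test cannot decide whether the 2 changes differ.

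Csf1r, the receptor for colony stimulating factor 1 on which macrophages depend, gave the smallest standard error of the members that fell. It read 2444.8, 2570.3 and 2413.7 in knockdown and 6820.6, 6944.9 and 7050.8 in wild type, 2.64-fold lower (log2 fold change -1.40 ± 0.05, limma adjusted p 6.07e-08), with -1.55 ± 0.07 and -1.46 ± 0.13 at its other probe sets. The chemokine receptors of monocytes gave a less even picture. Ccr2 was not called at the probe set with the highest mean, which read 58.4, 337.2 and 127.1 against 212.1, 96.5 and 154.4 and had a log2 fold change of -0.17 ± 0.43. That value was 0.27 without knockdown A and 0.042 without wild type A. Its other 3 probe sets were called lower, at -1.22 ± 0.20, -0.70 ± 0.22 and -1.42 ± 0.24, although knockdown signals there were within background, so that the falls are at least 1.94-fold, 1.33-fold and 2.19-fold. Cx3cr1, the fractalkine receptor, was near background at both probe sets and did not pass (-0.14 ± 0.27, limma adjusted p 0.75). Its value turned to 0.084 without knockdown B.

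Adgre1, which encodes F4/80, the standard surface marker of mouse macrophages, read 783.8, 822.4 and 879.2 in knockdown and 2329.5, 2141.0 and 2461.4 in wild type. It was 2.72-fold lower, with a log2 fold change of -1.44 ± 0.08 (SE, limma adjusted p 7.23e-07). Ms4a7, a membrane protein with several spans, fell by 1.20 ± 0.07 at its brighter probe set. Vcam1, an adhesion molecule that macrophages of red cell islands display and that other cells make too, went the other way without a firm call. It read 150.9, 207.4 and 136.0 in knockdown and 109.9, 73.5 and 69.5 in wild type, so its arrays did not overlap, yet the log2 fold change of 0.59 ± 0.22 did not pass (limma adjusted p 0.076). A second Vcam1 probe set, the 1 member probe set called higher, read 50.5, 220.8 and 125.5 against 19.9, 44.5 and 25.5. Wild type lay within background there, and knockdown A lay below its bacterial control of 82.2, so the size of the rise is uncertain. The probe set passed the filter on dim signals only through its knockdown arrays. Its call (limma adjusted p 0.0427) is therefore no evidence of a rise. Without knockdown B or C, or without any 1 wild-type array, no member probe set was called higher.

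All 6 genes of the lysosome, phagosome and cytosol fell, by amounts that ranged from -2.08 to -0.38 on the log2 scale. Mpeg1, the pore-forming perforin-2 of phagocytes, read 2076.6, 1849.1 and 2099.9 in knockdown and 5495.0, 5373.2 and 5410.7 in wild type, 2.56-fold lower (log2 fold change -1.36 ± 0.06, SE). Cd68, a lysosomal glycoprotein, fell by 1.08 ± 0.09 and Gpnmb, a lysosome-associated glycoprotein, by 1.09 ± 0.06, from 12788 ± 300 to 5934 ± 575 (SD, n = 3). Lgals3, which encodes galectin-3, fell by 0.73 ± 0.06. Slc11a1, the phagosomal metal transporter NRAMP1, had the smallest change among those called: it read 534.4, 571.8 and 543.8 against 732.4, 683.0 and 661.5, a change of -0.38 ± 0.09 on the log2 scale (limma adjusted p 0.0107). Without wild type A it was -0.34 with an adjusted p of 0.0605. Aif1, the actin-binding protein IBA1, read 50.4, 74.6 and 33.6 against 301.8, 277.2 and 283.2. It lay within background on each knockdown array and was at least 2.77-fold lower (limma adjusted p 2.91e-05).

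**Figure D2:**
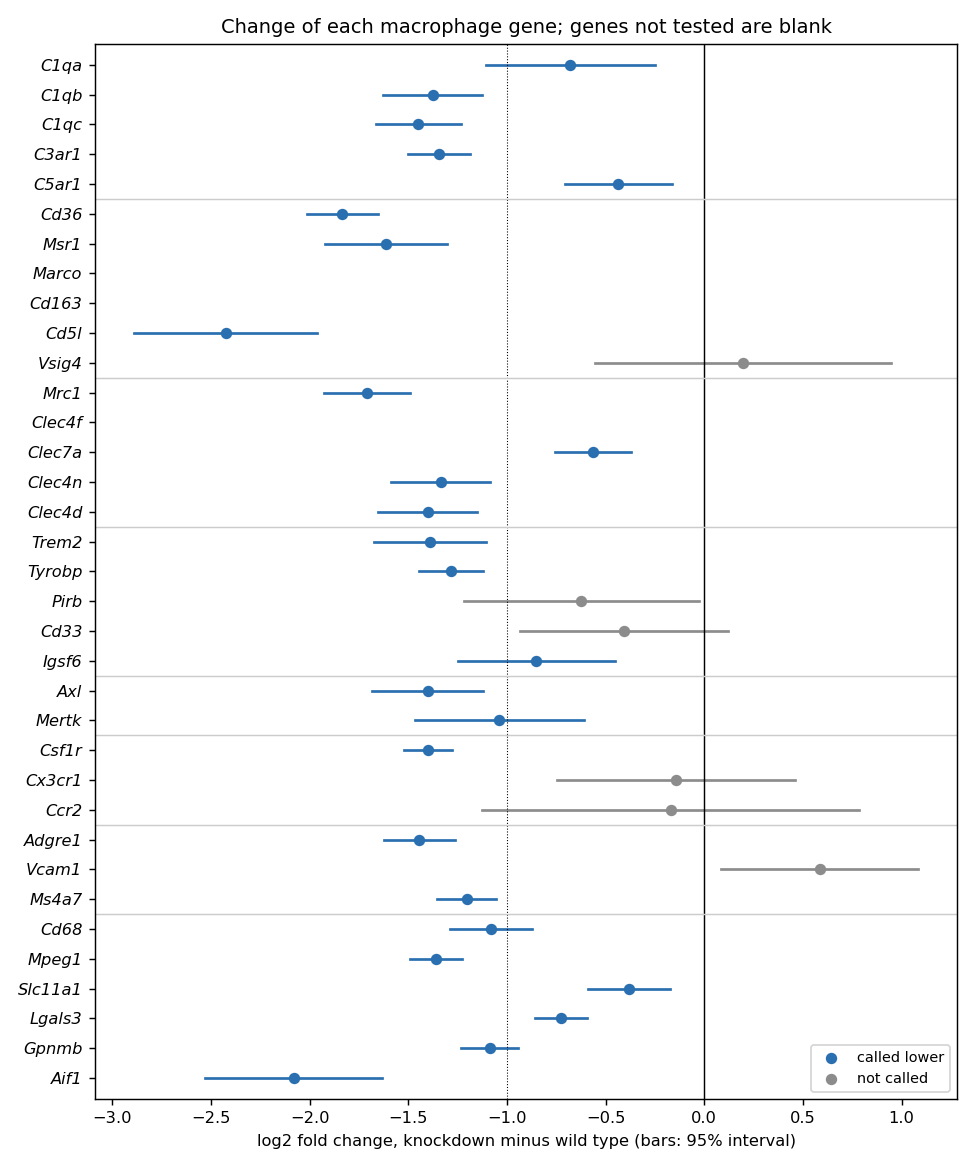
Fitted log2 fold change, knockdown minus wild type, of each tested macrophage gene, with 95% intervals, blue where called lower and grey where not called. The dotted line marks -1, a fall of 2-fold. Of the 26 genes called, 20 lie at or beyond that line, and Cd5l (-2.42), Aif1 (-2.08) and Cd36 (-1.83) lie farthest left.

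Of 15 members with more than 1 probe set, 13 had several that were tested, and in 7 of these 13 every tested probe set was called lower. Members whose probe sets differed in call were Cd36, Trem2, Ccr2, Vcam1 and Ms4a7, and those of Cx3cr1 all failed the test. No member had probe sets called in opposite directions.

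**Figure D3:**
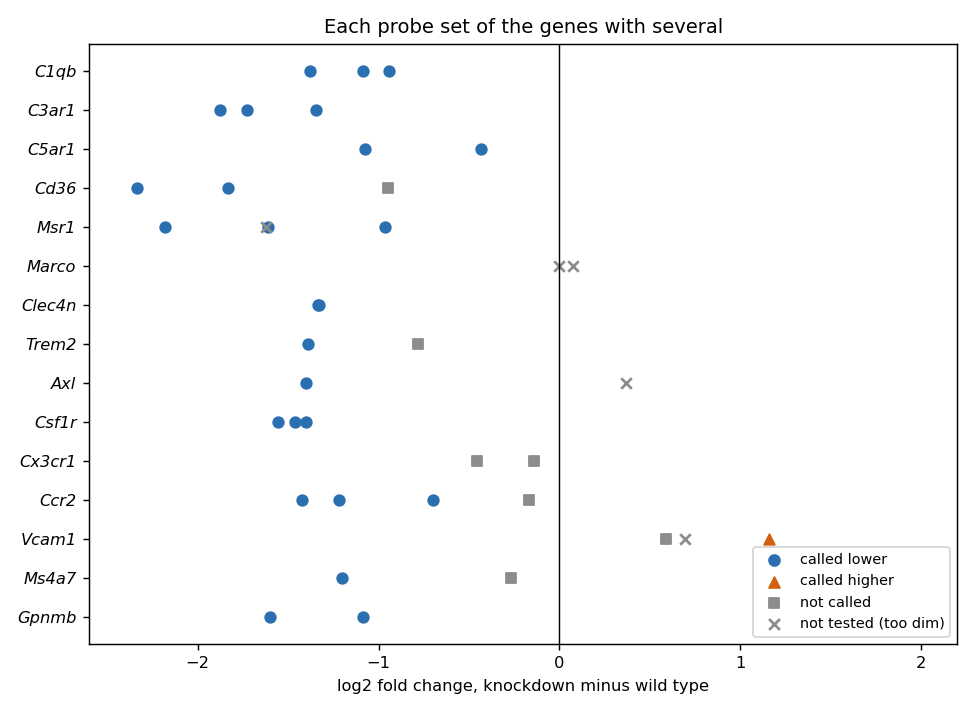
Log2 fold change of every probe set of the 15 macrophage genes with more than 1, by call. The probe sets of C1qb, C3ar1, Csf1r and Clec4n all lie at -0.94 or below and are called lower, those of Ccr2 run from -1.42 to -0.17, and Vcam1 alone has a probe set called higher.

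Other genes of macrophage biology, listed by role, moved less uniformly. Their counts stand beside the 17.1% of all genes tested that were called lower and the 18.3% called higher. A count near those shares says nothing about its list. Of 18 macrophage transcription factors, 17 were on the array and 15 tested, with 7 lower, 1 higher and a median log2 fold change of -0.58. Tfec, a relative of Mitf, lay above background on 1 of 3 knockdown arrays and was at least 3.22-fold lower, Cebpa fell by 1.79 ± 0.17 (SE), Maf fell by 1.43 ± 0.14 and Klf4 fell by 1.35 ± 0.22. Spi1, which encodes PU.1, was at -0.23 ± 0.13 and did not pass (limma adjusted p 0.209), and it is named here although the naming rule did not choose it. Of 12 growth factors and receptors, 11 were tested, of which 5 fell and 1 rose (median -0.22). The receptor chain Il10ra fell by 2.85 ± 0.23, Ifngr2 by 1.63 ± 0.24 and the beta chain Csf2rb2 by 1.13 ± 0.10, and Il3ra rose by 1.02 ± 0.13. Csf1, the ligand of the receptor encoded by Csf1r, was at -0.24 ± 0.19 and did not pass, and is likewise named outside the rule.

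Of 20 further genes of engulfment and scavenging, 19 were tested, of which 10 fell and 2 rose (median -0.37). The largest falls were Lrp1 at -1.67 ± 0.12 (SE), Sirpa at -1.31 ± 0.09, Colec12 at -1.29 ± 0.24 and Stab1 at -1.04 ± 0.21. Of 14 partners of ITAM and ITIM receptors on the array, 13 were tested, of which 4 fell and 2 rose (median -0.15). Siglecf, whose knockdown signals were all within background, was lower by at least 1.40-fold, Treml2 fell by 0.40 ± 0.07, and the phosphatase gene Ptpn6 and the phospholipase gene Plcg2 rose by 0.50 ± 0.07 and 0.43 ± 0.04. Of 12 further complement genes on the array, 10 were tested, of which 4 fell and 2 rose (median -0.33). The regulator Cd55 fell by 2.01 ± 0.10, properdin, Cfp, by 1.49 ± 0.11, the integrin chain Itgam by 1.38 ± 0.17, and C1qbp, whose product is found in mitochondria and can bind C1q, rose by 0.85 ± 0.07.

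Markers of several other cells fell as well. Their counts too stand beside 17.1% of all genes tested called lower and 18.3% called higher. For macrophages the signals of 6 members, Adgre1, Csf1r, Cd68, C1qa, Mpeg1 and Mrc1, were summed. All 6 were already counted above as lower, so their sum is no separate result. It ran from 7604 to 7718 in knockdown and from 19921 to 20637 in wild type, and none of the 6 was within background. Vcam1, Marco, Cd163, Vsig4 and Clec4f were not part of it. For neutrophil markers, 10 of 13 tested fell and 0 rose, the sum of the 14 on the array went from 12143 to 12614 in wild type to 3513 to 3673 in knockdown, and Cxcr2 lay within background in both groups. The neutrophil genes S100a9 and Ngp had log2 fold changes of -2.23 ± 0.12 and -2.17 ± 0.10 (SE). Of 10 mast cell markers, 7 fell and 1 rose, and the sum was 4745 to 5428 in wild type and 1937 to 2214 in knockdown. Of 8 monocyte markers tested, 4 fell and 1 rose, and their sums overlapped, at 19672 to 20943 in knockdown and 20046 to 20948 in wild type. Most of each sum is F13a1, a factor XIII gene that platelets also express, with a signal of 12827 ± 561 for the knockdown arrays and 12766 ± 437 for the wild-type ones (SD, n = 3). Of the others, Vcan rose by 1.83 ± 0.09 (SE, log2 scale), while Ms4a6d fell by 1.81 ± 0.09, Cd14 fell by 1.42 ± 0.12 and Ms4a6c fell by 0.69 ± 0.13. Dendritic cell markers were dim: of 10 on the array, Flt3, Siglech, Xcr1 and Ccr7 lay within background in both groups, and of 6 tested 1 fell, with sums of 1136 to 1266 in knockdown and 1246 to 1454 in wild type. Of the 10 megakaryocyte markers 8 fell and 0 rose, with sums of 92115 to 114607 in knockdown and 140293 to 150171 in wild type. Erythroid sums were 2996 to 3239 in knockdown and 14871 to 15104 in wild type, with 3 of 6 markers lower and 1, Slc4a1, higher. Most of that gap is Hbb-y, with means of 1125 and 9748, and Epor, with 757 and 3990. Hepatocyte sums were 532 to 719 in knockdown and 1113 to 1314 in wild type, with 1 of 4 tested lower. Most of this gap is that 1 gene, Afp, with means of 370 and 913. The part of these other cells in the result for the macrophage genes was not tested.

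**Figure D4:**
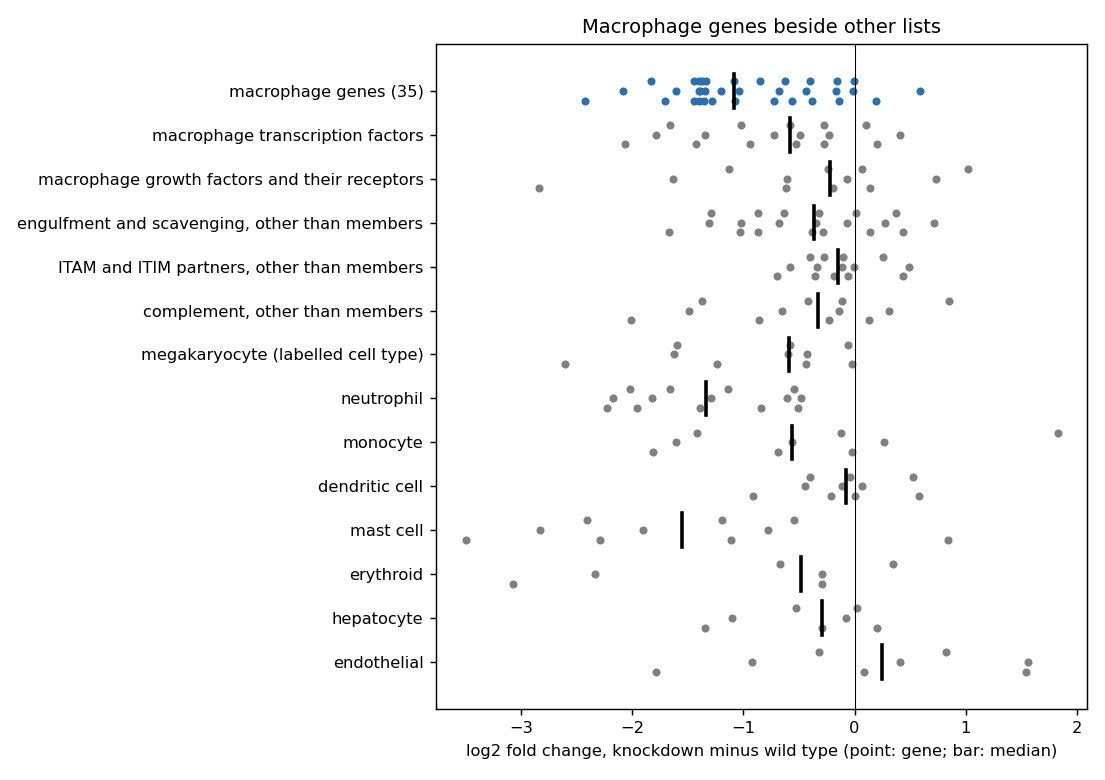
Log2 fold change, knockdown minus wild type, of each gene on the array (points) of the 35 macrophage genes (blue) and of the other lists (grey), with the median of each list as a black bar. The macrophage median is -1.09, those of neutrophil and mast cell markers are -1.34 and -1.55, and those of the other lists lie between -0.59 and 0.25.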

How the data were processed

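The deposited table of the authors holds intensity values on a linear scale for 45101 probe sets and 6 arrays. After trimming 2% of values from each end, all 6 arrays had a mean of 500.0, which is the mark of a shared scaling. Software: not given in the sources used here. The analysis took log2(signal + 32). The array medians spanned 0.346 on that scale, and arrays were quantile normalized. The 64 control probe sets and those below the 30th percentile of mean log2 value were left out, which left 31526. Of the 59 member probe sets 52 remained, 2 of them only through the brighter group.

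Knockdown was set against wild type with limma 3.58.1 under R 4.3.3 (lmFit, then eBayes with an intensity trend, two-sided), and the model held nothing but group. Means ± SD are of deposited signals. Log2 fold changes are of normalized values with the offset, which understates changes of dim genes. A group is called within background where its signal exceeded the highest of 27 bacterial control probe sets on at most 1 of its 3 arrays. A fold change is then a bound, which sets the mean of the brighter group against that of the dimmer one after each of its values was raised, where lower, to the control of its array (normalized log2 values). Probe sets were named from the platform annotation, with symbols updated through gene numbers (34945 name 1 gene, 932 several, 9160 none). Of 173 genes in the other lists, 154 were on the array by that naming. The probe set with the highest mean log2 value stands for a gene. Genes named among markers of other cells were chosen after their values were seen. Named beyond the 35 members were Gata1, 4 megakaryocyte genes and, in each list of macrophage biology, up to 4 called genes with the largest changes. The members and lists were chosen with earlier results of these data known. The test was also run on simulated data. Alternatives were offsets of 1 and 100, values as deposited, median centring, no filter or one at the 50th percentile, signals floored at the bacterial controls, no intensity trend, the replicate letter as a block, probe sets averaged per gene, and each array left out. Same-lettered samples did not deviate together (correlations -0.04, -0.02 and -0.01 for A, B and C). The number of arrays limits the precision.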

Additional observations from a re-analysis of the deposited data

How the results depend on the processing

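The count of macrophage genes called lower, 26, lay between 24 and 27 under the 16 alternatives, and between 24 and 26 with 1 array left out, and 23 genes were called lower under every alternative in which they were tested. The exceptions were C1qa, C5ar1 and Slc11a1. Member probe sets called lower numbered 38 to 42. The count of genes called higher rose from 0 to 1, Vcam1, with values as deposited, with signals floored at the bacterial controls and where a gene's probe sets were averaged, and was 0 throughout with 1 array left out. Member probe sets called higher numbered 2 with values as deposited, 0 with arrays centred on their medians, 0 with no filter, 0 with the filter at the 50th percentile and 0 without the intensity trend, and 0 to 1 with 1 array left out. The median log2 fold change of the members was -1.32 with arrays centred on their medians, where that of all genes tested moved from 0.03 to -0.08, and between -1.21 and -1.09 with 1 array left out. It was 0.12 for all genes tested with values as deposited. Of all calls, 52.9% were rises, against 32.9% after median centring and 60.0% with values as deposited. Calls over all probe sets numbered 9577, and 7383 to 10709 with 1 array left out. With the replicate block, 8757 probe sets and 27 member genes were called (lower), Pirb being added at -0.62 with a limma adjusted p of 0.0198. The labels do not say whether the letters pair the samples. C1qa and C5ar1 were not called without the intensity trend (adjusted p 0.0533 and 0.0771). Ccr2 was called lower, at -0.88, with the mean of all its probe sets. The direction turned for 2 genes that were not called: Ccr2, which ran from -0.70 to 0.27 with 1 array left out (0.27 without knockdown A and 0.042 without wild type A), and Cx3cr1, at 0.043 with values as deposited and from -0.34 to 0.084 with 1 array left out (0.084 without knockdown B). The cause of these changes was not tested. Signals near the bacterial controls limit what can be said of Marco, Cd163, Clec4f, Vsig4, Cd33 and Cx3cr1.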

Other observations

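Endothelial markers, which the text above does not describe, had no common direction. Of 8 endothelial markers on the array, 7 were tested, of which 3 rose and 2 fell. Over all genes tested, 18.3% were called higher and 17.1% lower. The angiopoietin receptor Tek rose by 1.56 ± 0.20 (SE, log2 scale), the VEGF receptor Kdr by 1.54 ± 0.14 and endoglin, Eng, by 0.82 ± 0.07. The adhesion molecule Pecam1, which platelets also carry, fell by 1.79 ± 0.07, and Lyve1, a hyaluronan receptor that some macrophages share, by 0.92 ± 0.14. The endothelial cadherin gene Cdh5 lay within background in both groups. Among the erythroid and hepatocyte markers counted above, the embryonic globin Hbb-y was at -3.07 ± 0.06 and Afp at -1.35 ± 0.18, and Apoa1, Apob, Ahsg and Fgb lay within background in both groups. The rises and falls given here are limma calls at an adjusted p of 0.05 over all probe sets tested, and the genes within background were not called.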
